A study of Mus musculus with 12 samples.

Results

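The muscle genes Ankrd1, Ankrd23, Xirp1, Xirp2, Csrp3, Fhl1, Fhl2, Tcap, Nrap and Rcan1 were read from a table of 31722 gene symbols in 12 mouse hearts, and all 10 were in the table. They were chosen as a group of ankyrin repeat, Xin repeat and LIM domain proteins of striated muscle that are known to respond to stretch or load. The hearts came from C57BL/6J mice, 6 in a Control group and 6 in a group given carbon tetrachloride (CCl4), a solvent toxic to the liver with which cirrhosis is produced. The study asks how liver cirrhosis acts on the heart. No dose, duration, age or sex is given in the labels, and whole heart tissue was used, so chambers and cell types are mixed.

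In a heart muscle cell the Z-disc anchors actin and the giant spring protein titin, and several proteins bound there or on titin can also enter the nucleus when the muscle is stretched. Ankrd1 and Ankrd23 belong to the muscle ankyrin repeat proteins, which bind the titin spring. Csrp3 (muscle LIM protein), Fhl1 and Fhl2 carry LIM zinc fingers and sit on the Z-disc or the titin spring. Tcap (telethonin) caps the end of titin in the Z-disc. Xirp1, Xirp2 and Nrap bind actin at the intercalated disc, where neighbouring cells join. Rcan1 binds and restrains calcineurin, the calcium-dependent phosphatase that activates NFAT factors.

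The promoters of Ankrd1, Xirp2 and Fhl1 are shown because these 3 genes varied together from heart to heart. That of Fhl2 is set beside them as the other Fhl gene among the 10. RefSeq (build GRCm38.p6) listed 13 start windows for 8 of the 10 genes, each from 250 bases before to 50 bases after a start. Capitals mark matches, on either strand, to any of 7 motifs, and matches of different motifs may overlap. The windows are on chr19:36119795-36120094 (minus strand) for Ankrd1, chr2:67445752-67446051 (plus) for Xirp2, chrX:56779433-56779732 (plus) for Fhl1 and chr1:43196712-43197011 (minus) for Fhl2.
Ankrd1: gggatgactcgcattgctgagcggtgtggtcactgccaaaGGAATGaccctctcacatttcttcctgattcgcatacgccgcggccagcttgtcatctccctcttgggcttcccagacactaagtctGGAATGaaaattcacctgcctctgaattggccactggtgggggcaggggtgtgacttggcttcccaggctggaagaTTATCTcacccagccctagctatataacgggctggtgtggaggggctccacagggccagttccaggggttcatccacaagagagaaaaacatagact
Xirp2: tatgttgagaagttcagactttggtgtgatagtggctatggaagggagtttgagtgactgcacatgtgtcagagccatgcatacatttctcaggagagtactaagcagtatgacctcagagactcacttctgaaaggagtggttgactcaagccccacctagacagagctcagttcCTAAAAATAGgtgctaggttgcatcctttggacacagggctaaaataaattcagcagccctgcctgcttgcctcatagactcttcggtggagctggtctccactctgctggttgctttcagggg
Fhl1: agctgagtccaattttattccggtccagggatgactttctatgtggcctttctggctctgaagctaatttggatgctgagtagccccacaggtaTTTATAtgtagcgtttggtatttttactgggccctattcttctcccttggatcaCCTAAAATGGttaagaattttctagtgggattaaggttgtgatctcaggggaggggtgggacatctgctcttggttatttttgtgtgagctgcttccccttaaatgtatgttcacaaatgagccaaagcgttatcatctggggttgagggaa
Fhl2: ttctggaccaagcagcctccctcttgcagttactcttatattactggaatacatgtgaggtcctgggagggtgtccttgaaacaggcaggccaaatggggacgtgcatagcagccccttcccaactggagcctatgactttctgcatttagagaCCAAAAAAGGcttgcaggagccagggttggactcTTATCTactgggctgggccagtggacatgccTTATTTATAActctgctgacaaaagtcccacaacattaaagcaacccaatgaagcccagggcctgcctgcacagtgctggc

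The Ankrd1 window held GGAATG, the MCAT box of TEAD factors, at 2 places, 210 and 123 bases before the start. It also held the GATA box AGATAA on the strand opposite to the printed one. GGAATG occurred in 14.7% and AGATAA in 11.2% of 32851 RefSeq windows of the same length. The Xirp2 window held a MEF2 box 74 bases before the start, found in 3.19% of windows. In the Fhl1 window shown an SRF CArG box lay 102 bases before the start, while a further Fhl1 window, on chrX:56786277-56786576, held none of the 7 motifs, and both Fhl2 windows also held a CArG box, a motif of 1.63% of windows. The first Fhl2 window further held a MEF2 box, AGATAA and the TATA box TATAAA (13.6% of windows), whose letters lay inside those of the MEF2 box. The Fhl1 window shown held TATAAA 156 bases before the start. These matches to AGATAA and TATAAA were on the strand opposite to the printed one. Rcan1 has 2 listed starts, and only the inner one, on chr16:92400029-92400328, held the NFAT core GGAAAA (2 matches; 23.4% of windows hold it). Both Ankrd23 windows held GGAATG and GGAAAA, and neither Csrp3 window held any of the 7 motifs. The E-box CAGCTG (16.3% of windows) was found once, in Nrap. A match describes letters and not a bound site.

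Values are RPKM, in which reads are divided by the length of the gene and the size of the library, so that levels of different genes can be set side by side. In the Control hearts the order of mean RPKM was Tcap (1409), Ankrd1 (591), Csrp3 (184), Fhl2 (88.0), Ankrd23 (57.2), Nrap (34.8), Xirp2 (20.1), Rcan1 (8.95), Xirp1 (7.74) and Fhl1 (7.01). Neighbours in this order had separate ranges over the 6 hearts except Fhl2 and Ankrd23, Ankrd23 and Nrap, Rcan1 and Xirp1, and Xirp1 and Fhl1. Tcap and Ankrd1 stood at the 99.7 percentile of mean level among the 14087 genes tested, and Xirp1 at the 76.2 percentile. Relative depth, taken from the step that a single read adds to RPKM, ran from 26404207 to 63476242 reads per library. The fewest such steps behind any value of these genes were 561, for Fhl1, so counting error is small beside the spread between mice.

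In 5 of 6 hearts of CCl4-treated mice Ankrd1 lay above all Control hearts, and in 4 of 6 Xirp2 did, while in CCl4 replicate 1 both lay near the low end of the Control range. Csrp3 lay below the Control median in all 6. Still, none of the 10 genes passed the test across all genes. The test was limma on log2(RPKM + 1), and every log2 fold change is the CCl4 mean less the Control mean on that scale. At a Benjamini-Hochberg adjusted p under 0.05, 0 of the 10 genes and 0% of the 14087 genes tested were called. At an unadjusted p under 0.05, 2 of the 10 (Ankrd1 and Xirp2) were higher, where 1.60% of all genes were, and 1 (Csrp3) was lower, where 8.58% were. Of the 10 genes 5 had a positive and 5 a negative log2 fold change, with a median of -0.002, beside -0.0483 and 34.3% positive for all genes. In each of the 10 genes the groups overlapped; they did not overlap in 0.760% of all genes tested. With limma's array weights, which ranged from 0.258 (CCl4 replicate 3) to 5.7 (CCl4 replicate 5), Ankrd1, Xirp2 and Fhl1 were called higher and Csrp3 lower, where 5.47% and 10.5% of all genes were. With both hearts numbered 1 left out, Ankrd1 was called higher and Csrp3 lower, where 0.724% and 1.57% of all genes were. Whole tissue cannot tell fewer cells of a type from less RNA per cell.

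**Figure D1:**
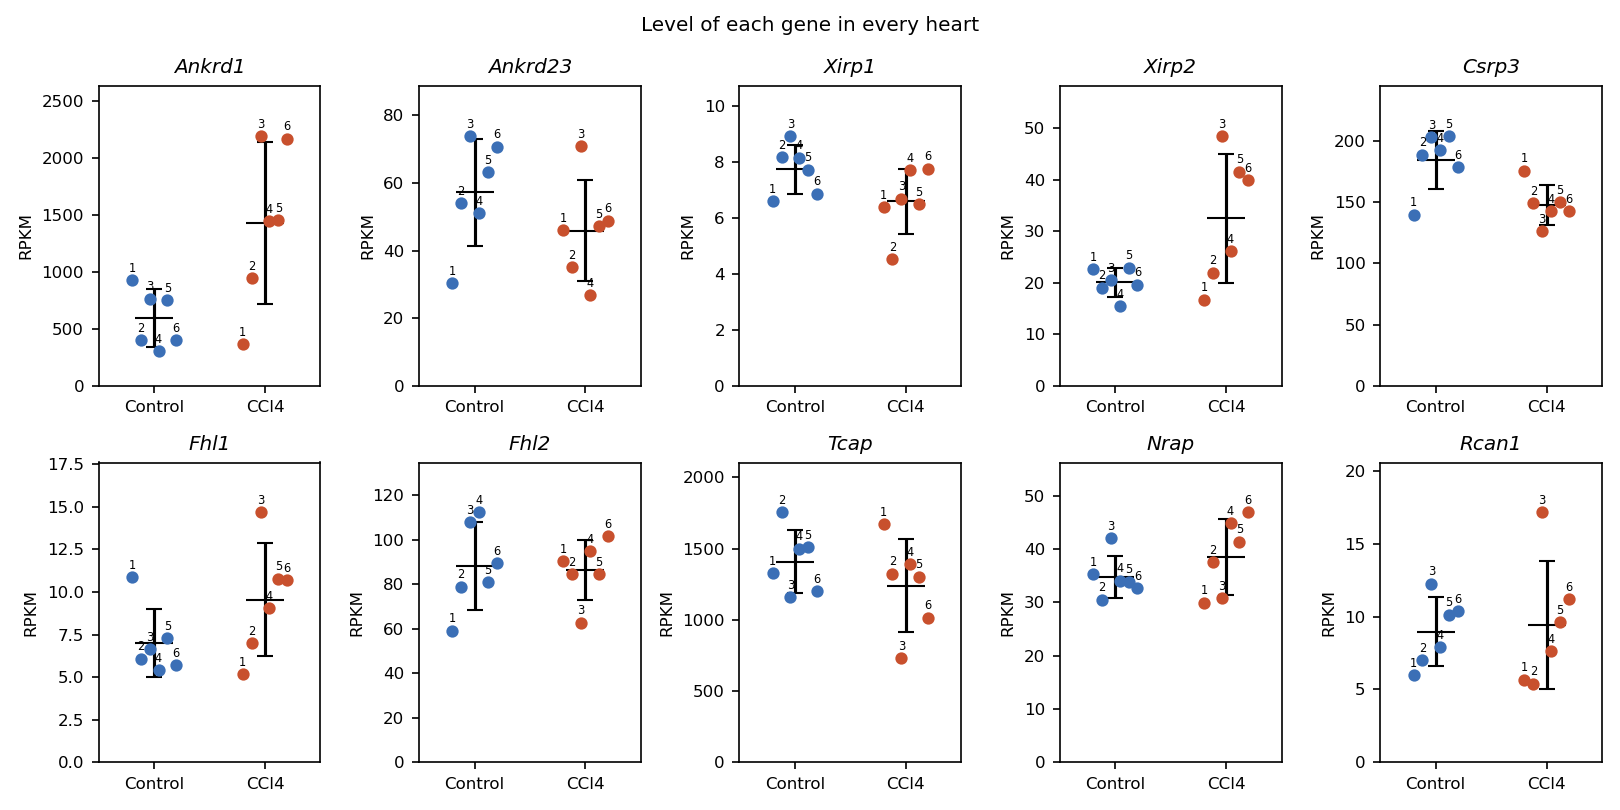
RPKM (vertical axes, from 0) of the 10 genes in Control (blue) and CCl4 (red) hearts; each point is a heart with its replicate number, and the bar gives the mean and SD of 6 hearts. Ankrd1 in CCl4 replicates 2 to 6 lies above all Control hearts, while replicate 1 lies among them.

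Ankrd1 (chromosome 19, 36111961 to 36120099), the cardiac ankyrin repeat protein, was at 302 RPKM in the lowest Control heart, at a median of 577 and at 926 RPKM in the highest. In CCl4 hearts the lowest was 366, the median 1448 and the highest 2189 RPKM. CCl4 replicates 3 and 6 (2189 and 2167 RPKM) were highest, replicates 4 and 5 followed (1445 and 1451 RPKM), replicate 2 (946 RPKM) was just above the highest Control heart, and replicate 1 (366 RPKM) was among the Control hearts. Means were 591 ± 254 and 1427 ± 705 RPKM (SD, n = 6 each), a ratio of 2.42. The log2 fold change was 1.18 (SE 0.41), with a limma adjusted p of 0.356 over all genes (unadjusted p = 0.0129). The spread within each group was wide: the coefficient of variation was 43.0% in Control and 49.4% in CCl4 hearts, the largest of the 10 genes in both groups.

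Its relative Ankrd23 (chromosome 1, 36530188 to 36536883) lay on the other side. Control hearts ran from 30.3 to 73.8 RPKM with a median of 58.6, and CCl4 hearts from 26.8 to 70.9 RPKM with a median of 46.6. The groups overlapped nearly fully, and the lowest heart of each was Control replicate 1 and CCl4 replicate 4. Those 2 hearts were also the highest of their groups in the atrial gene Myl7 (419 and 307 RPKM; the other Control hearts were at 9.47 to 181 and the other CCl4 hearts at 0.811 to 28.7 RPKM), and the log2 fold change of Ankrd23 was -0.49 without Control replicate 1, -0.18 without CCl4 replicate 4 and -0.35 without both. Control replicate 3, with Myl7 at 181 RPKM, had the highest Ankrd23 of the Control hearts (73.8 RPKM). The part of atrial tissue in the Ankrd23 values was not tested. The log2 fold change of Ankrd23 over all hearts was -0.32 (SE 0.24, limma adjusted p = 0.677). Exons of Ankrd23 overlap the gene model Gm42417 on the same strand (64.9 ± 18.2 and 51.9 ± 16.9 RPKM), so their reads can be shared.

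Xirp2 (chromosome 2, 67446002 to 67526614), a Xin repeat protein that crosslinks actin, was at 15.5, 20.1 and 22.9 RPKM in the lowest, median and highest Control heart. In CCl4 hearts these values were 16.7, 33.0 and 48.4 RPKM. CCl4 replicates 3, 4, 5 and 6 (48.4, 26.2, 41.5 and 39.9 RPKM) lay above all Control hearts, and replicates 1 and 2 lay within their range. The means were 20.1 ± 2.72 and 32.5 ± 12.6 RPKM, and the log2 fold change was 0.59 (SE 0.22, limma adjusted p = 0.383). The antisense gene Gm13601, whose exons overlap those of Xirp2 on the opposite strand, was at 25.4 ± 6.00 and 45.8 ± 21.4 RPKM and followed Xirp2 over the 12 hearts (r = 0.975, given as a description). The strand setting of the counting was not given in the sources used here, so reads of the pair cannot be told apart.

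Xirp1 (chromosome 9, 120013755 to 120023598), the founding Xin protein, went the other way from Xirp2. Its lowest, median and highest Control hearts were at 6.60, 7.94 and 8.93 RPKM, and its CCl4 hearts at 4.54, 6.59 and 7.75 RPKM. All 6 CCl4 hearts lay below the Control median, and 3 of them (replicates 1, 2 and 5) lay below every Control heart. In these 3 hearts 47.0%, 60.6% and 17.0% of all genes tested lay below every Control heart. The log2 fold change was -0.21 (SE 0.11, limma adjusted p = 0.546), and -0.12 without CCl4 replicate 2, the lowest heart.

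Csrp3 (chromosome 7, 48830398 to 48848033), a Z-disc LIM protein, was at 139.6, 191 and 204 RPKM in the lowest, median and highest Control heart and at 126, 146 and 176 RPKM in CCl4 hearts. None of the 6 CCl4 hearts reached the Control median, but the lowest Control heart, replicate 1, lay among the CCl4 hearts. The means were 184 ± 23.9 and 148.0 ± 16.1 RPKM (log2 fold change -0.31, SE 0.11, limma adjusted p = 0.353, unadjusted p = 0.0124). Tcap (chromosome 11, 98383811 to 98384953) ranged from 1161 to 1754 RPKM in Control and from 734 to 1671 RPKM in CCl4 hearts (-0.22, SE 0.18, adjusted p = 0.71), and without CCl4 replicate 3 the log2 fold change was -0.07. Its lowest hearts were CCl4 replicates 3 and 6 (734 and 1015 RPKM), the same hearts in which Ankrd1 was highest.

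Fhl1 (chromosome X, 56731787 to 56793346), a LIM-only protein bound to titin, was at 5.42, 6.37 and 10.9 RPKM in the lowest, median and highest Control heart and at 5.17, 9.87 and 14.7 RPKM in CCl4 hearts. Of the CCl4 hearts 5 of 6 lay above the Control median, but only replicate 3 lay above the highest Control heart, which was replicate 1. The log2 fold change was 0.37 (SE 0.21, limma adjusted p = 0.563). Fhl2 (chromosome 1, 43123074 to 43196984), a LIM-only protein gene at a higher level here than Fhl1, had nearly equal means, 88.0 ± 19.7 and 86.4 ± 13.3 RPKM (-0.01, SE 0.16). Its sign depended on the scaling of the libraries. Within Control hearts Fhl2 was lowest (59.1 RPKM) in replicate 1, the heart in which Fhl1 was highest.

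Nrap (chromosome 19, 56320035 to 56390037), an anchoring protein of growing myofibrils, ranged from 30.5 to 42.1 RPKM in Control and from 29.9 to 46.9 RPKM in CCl4 hearts (0.13, SE 0.12, limma adjusted p = 0.757). Its log2 fold change was 0.20 without CCl4 replicate 1 and 0.07 without CCl4 replicate 6. Parts of it overlap Habp2 and Gm17197 on the opposite strand (6.20 ± 0.846 and 12.2 ± 3.71 RPKM in Control hearts). Rcan1 (chromosome 16, 92391953 to 92470867) ranged from 6.00 to 12.3 RPKM in Control and from 5.41 to 17.1 RPKM in CCl4 hearts, with a log2 fold change of 0.01 (SE 0.24, adjusted p = 0.994) whose sign depended on the scaling. CCl4 hearts were on both sides of the Control range: replicate 3 lay above it, and replicates 1 and 2 below it. A gene-level value does not separate the products of its 2 starts.

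**Figure D2:**
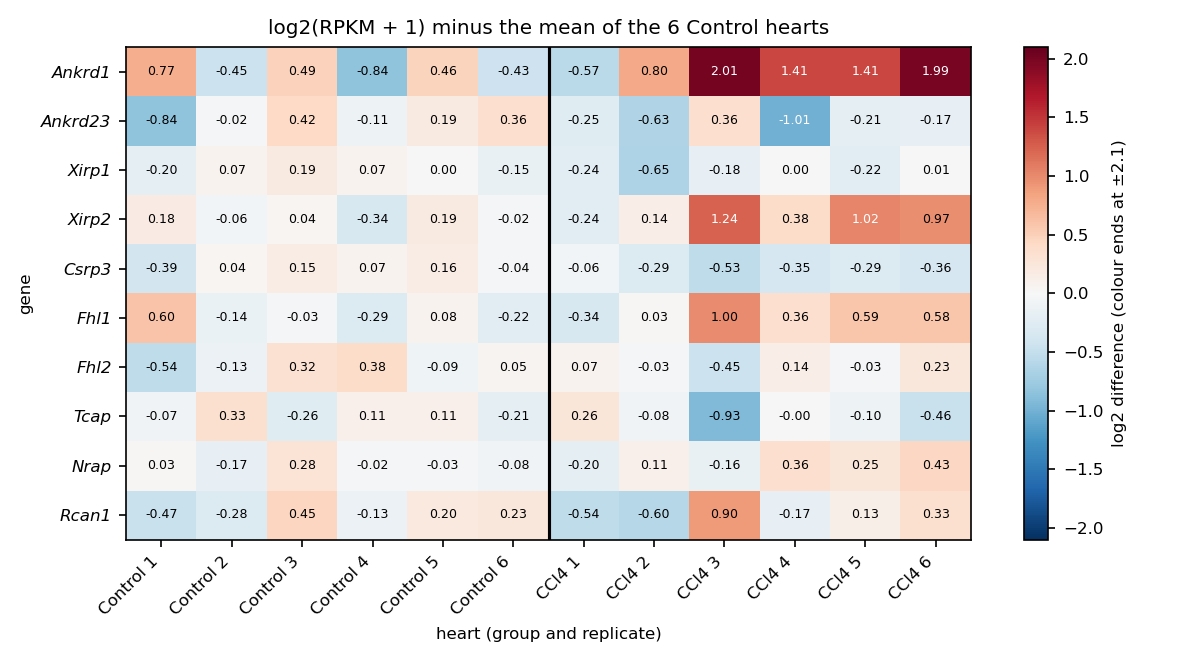
Each cell gives log2(RPKM + 1) of a gene in a heart minus the mean of the 6 Control hearts (red higher, blue lower); columns are hearts and rows are genes. CCl4 replicates 3, 5 and 6 are red in Ankrd1, Xirp2 and Fhl1 together, and CCl4 replicate 1 is not. CCl4 replicate 4 (1.41, 0.38 and 0.36) and Control replicate 1 (0.77, 0.18 and 0.60) are also above 0 in these genes. So are CCl4 replicate 2 and Control replicate 5, by less in Xirp2 or Fhl1.

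The CCl4 hearts were uneven. The root mean square distance of the 10 genes from the Control mean, on the log2 scale, was 0.94 in CCl4 replicate 3, 0.77 in replicate 6, 0.61 in replicate 5, 0.60 in replicate 4, 0.44 in replicate 2 and 0.32 in replicate 1. Control hearts, measured from a mean that includes them, were at 0.20 to 0.49. CCl4 replicate 3 had 4 members above the Control range (Ankrd1, Xirp2, Fhl1 and Rcan1) and 2 below it (Csrp3 and Tcap), where 45.1% and 14.1% of all genes tested lay above and below in that heart. CCl4 replicate 1 had 0 above and 4 below (Xirp1, Fhl1, Nrap and Rcan1), with 1.77% and 47.0% of all genes. In CCl4 replicate 2 Ankrd1 lay above and Xirp1 and Rcan1 below, with 2.26% and 60.6% of all genes. In replicates 4, 5 and 6 there were 3, 2 and 3 members above, among them Ankrd1 and Xirp2 each time, where 10.2%, 12.1% and 22.9% of all genes were above. Each of these 3 hearts had 1 member below, Ankrd23, Xirp1 and Tcap in turn, where 24.3%, 17.0% and 10.6% of all genes were below.

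Cell type markers differed between these hearts as well. The summed level of 7 fibroblast markers, all 7 with a positive log2 fold change, ran from 88.8 to 239 RPKM in Control and from 97.5 to 593 RPKM in CCl4 hearts. It was highest in CCl4 replicates 3, 6 and 5 (593, 348 and 283 RPKM) and lowest among CCl4 hearts in replicate 1. Among Control hearts it was highest in replicate 1 (239 RPKM), which also had the highest Ankrd1 and Fhl1 of that group. The 6 macrophage markers summed to 21.3 to 28.6 and 16.4 to 103 RPKM, again highest in CCl4 replicate 3. The 11 cardiomyocyte markers, which include the main contractile genes of heart muscle, summed to 32246 to 40129.6 RPKM in Control and 22541 to 34112 RPKM in CCl4 hearts, lowest in CCl4 replicate 3. All 7 endothelial markers had a negative log2 fold change (6 at an unadjusted limma p under 0.05, median -0.371), with sums of 153 to 186 RPKM in Control and 98.3 to 148 RPKM in CCl4 hearts, which did not overlap. All 5 red cell markers had a positive one (5 at an unadjusted p under 0.05, median 0.417; sums of 116 to 235 and 157 to 244 RPKM), and all 5 mesothelial markers a negative one (median -0.516; 4.43 to 16.7 and 0.639 to 15.9 RPKM). No marker of these 6 lists was at 0, and none was called at the adjusted threshold. The part of these markers in the members' values was not tested. Of all genes tested 34.3% had a positive log2 fold change, and 1.60% were higher and 8.58% lower at an unadjusted limma p under 0.05. The groups did not overlap in 0.760% of all genes, a share for single genes and not for sums. Of the 11 skeletal muscle markers Myh2 and Myh4 were below 0.1 RPKM in every heart, but 4 (Tnnt3, Tnni2, Mylpf and Ckm) passed the expression filter. The 11 summed to 148 to 239 RPKM in Control and 79.7 to 197 RPKM in CCl4 hearts.

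With CCl4 replicate 3 left out, Ankrd1, Xirp2 and Fhl1 had log2 fold changes of 1.01, 0.45 and 0.24. Leaving out CCl4 replicate 1 instead gave 1.52, 0.75 and 0.51. Divided by the level of the cardiomyocyte markers in each heart, Ankrd1, Xirp2 and Fhl1 had log2 fold changes of 1.35, 0.75 and 0.52, Csrp3 and Tcap -0.14 and -0.04, and Xirp1, Ankrd23 and Nrap -0.06, -0.15 and 0.30. That scaling moved the median of all genes from -0.0483 to 0.0742.

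**Figure D3:**
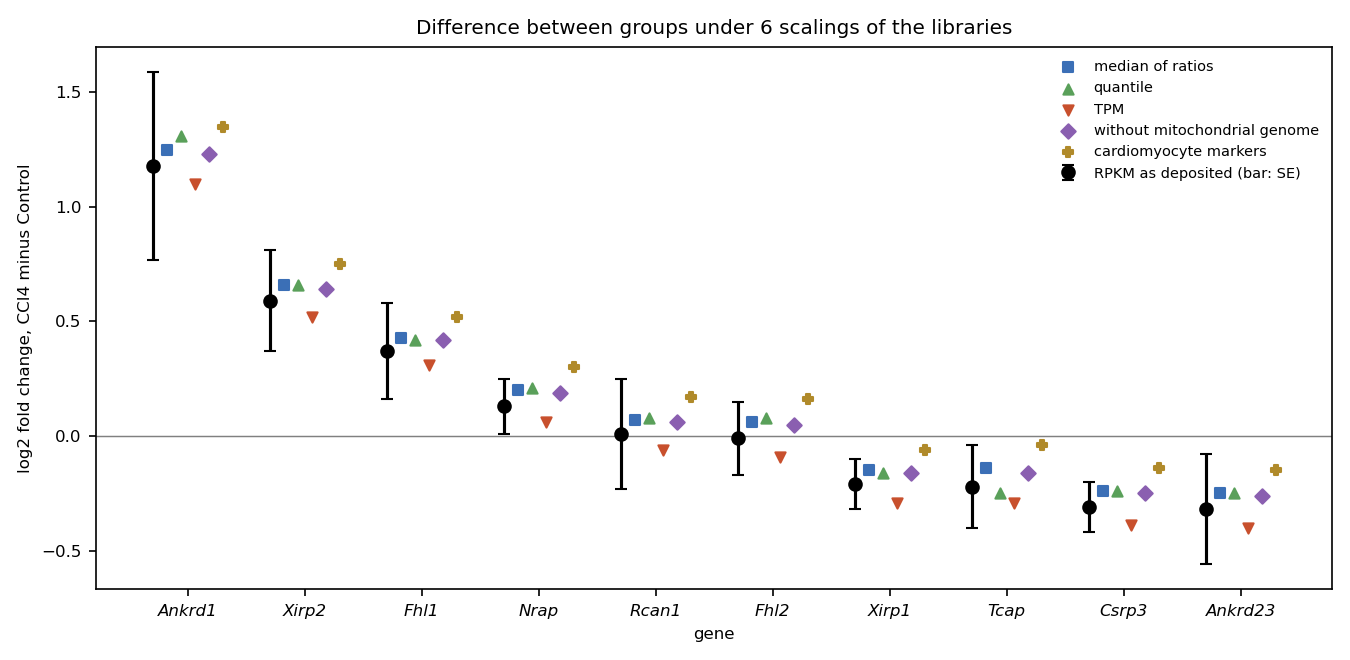
Log2 fold change (CCl4 minus Control, vertical axis) of the 10 genes under 6 scalings of the libraries; the black points are RPKM as deposited with the standard error. Ankrd1, Xirp2, Fhl1 and Nrap are above 0 and Ankrd23, Csrp3, Tcap and Xirp1 below 0 under all 6, while Rcan1 and Fhl2 cross 0.

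Related members were also compared within each heart, as log2 of the ratio of RPKM + 1, which depends less on library scaling than a single level but still carries the added constant. The log2 ratio of Xirp1 to Xirp2 was -1.26 ± 0.28 in Control and -2.06 ± 0.53 in CCl4 hearts (SD, n = 6 each), a difference of -0.80 (exact two-sided permutation p = 0.013, adjusted p = 0.039 over the 3 ratios compared). All 6 CCl4 hearts lay below the Control median of this ratio, replicate 1 only just, and the groups overlapped through CCl4 replicate 1 (-1.27) and Control replicate 1 (-1.64). The log2 ratio of Ankrd1 to Ankrd23 was 3.28 ± 0.89 and 4.78 ± 0.96, a difference of 1.5 (exact permutation p = 0.0281, adjusted p = 0.0422), with 5 of 6 CCl4 hearts above the Control median. That of Fhl1 to Fhl2 was -3.48 ± 0.63 and -3.10 ± 0.63, a difference of 0.38 (exact permutation p = 0.32, adjusted p = 0.32), and 0.61 without Control replicate 1, 0.25 without Control replicate 4 and 0.17 without CCl4 replicate 3.

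The first 2 ratios were past the threshold by little. Each sets a member on the higher side against one on the lower side, and none of these genes passed alone over all genes. The adjustment covers only the 3 ratios, whose members were chosen with earlier results of these data known. For Xirp1 to Xirp2 the adjusted p of the exact test was above 0.05 without Control replicate 2, 4 or 6 or CCl4 replicate 3, 5 or 6 (up to 0.0682). For Ankrd1 to Ankrd23 it was above 0.05 without Control replicate 2, 4 or 6 or CCl4 replicate 3, 4, 5 or 6 (up to 0.0747).

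From heart to heart Ankrd1, Xirp2 and Fhl1 varied together. Over 12 hearts Xirp2 and Fhl1 had Pearson's r = 0.908 (permutation p = 1e-05, the smallest that 100000 resamples can give; adjusted p = 0.00045 over 45 pairs) and Spearman's rho = 0.916 (permutation p = 0.0001). Within the 6 Control hearts r was 0.737 (exact permutation p = 0.111) and within the 6 CCl4 hearts 0.971 (exact p = 0.00139), and without the 2 hearts farthest from the median of Xirp2 it was 0.833. Ankrd1 and Xirp2 had r = 0.913 (permutation p = 2e-05, adjusted p = 0.00045) and rho = 0.944 (permutation p = 4e-05). This pair held at r = 0.891 in Control hearts (exact p = 0.00972), 0.898 in CCl4 hearts (exact p = 0.00694) and 0.875 without the 2 hearts farthest from the median of Ankrd1. Ankrd1 and Fhl1 had r = 0.910 (permutation p = 6e-05, adjusted p = 0.0009) and rho = 0.881 (permutation p = 0.00035), with 0.836 in Control hearts (exact p = 0.0167), 0.930 in CCl4 hearts (exact p = 0.00417) and 0.882 without the 2 farthest hearts. All 3 relations were positive within each group. Each pair shares the same libraries and tissue pieces, whose fibroblast markers differed as given above. The 8 atrial markers, mainly Nppa by level, summed to 626 to 15226 RPKM in Control and 853 to 11890 RPKM in CCl4 hearts. In Control hearts the sum was highest in replicates 1, 5 and 3, where Ankrd1, Xirp2 and Fhl1 were highest too. In CCl4 hearts it was highest in replicate 4, in which Xirp2 and Fhl1 were lower than in replicates 3, 5 and 6. Nppa is also among the load markers below, so a high sum need not mean more atrial tissue. CCl4 replicates 3 and 6 had Nppa at 9552 and 6675 RPKM but Myl7 at 28.7 and 0.811 RPKM, beside 307 RPKM in replicate 4. Of 7 tested atrial markers 2 had a positive and 5 a negative log2 fold change (median -1.08). The part of atrial tissue in these relations was not tested.

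**Figure D4:**
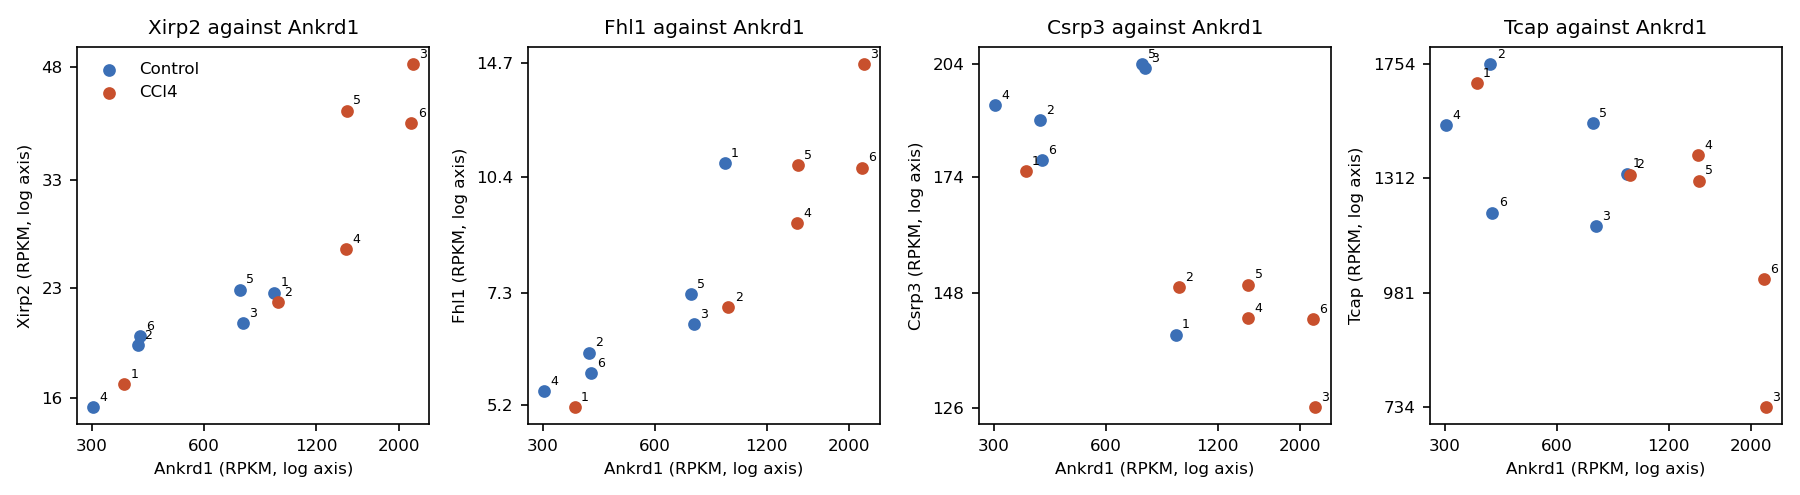
RPKM of Xirp2, Fhl1, Csrp3 and Tcap against Ankrd1 (both axes logarithmic); each point is a heart with its replicate number, Control blue and CCl4 red. Xirp2 and Fhl1 climb with Ankrd1 across both groups, and CCl4 replicate 1 lies with the Control hearts of low Ankrd1.

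The most negative pair was Csrp3 and Fhl1, with r = -0.821 (permutation p = 0.00198, adjusted p = 0.0223) and rho = -0.685 (permutation p = 0.0164, adjusted p = 0.0923). In Control hearts r was -0.749 (exact p = 0.157), in CCl4 hearts -0.912 (exact p = 0.0208), and -0.820 without the 2 hearts farthest from the median of Csrp3. The other 5 pairs of Csrp3 or Tcap with Ankrd1, Xirp2 or Fhl1 had pooled r of -0.768 to -0.709 (permutation test, adjusted p 0.0291 to 0.0321), but within Control hearts only -0.374 to -0.151 (exact p 0.431 to 0.792), beside -0.910 to -0.793 within CCl4 hearts (exact p 0.0111 to 0.0736), and the difference between the groups was not tested. By rho none of these 6 pairs passed (permutation test, adjusted p 0.0818 to 0.276). Of the 45 pairs 11 had an adjusted p under 0.05 for r, 4 positive and 7 negative, and 3 had one for rho. The share of pairs of other genes that would pass was not determined, so these counts have no background beside them. Values of r ran from -0.821 to 0.913, with a median of 0.071.

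**Figure D5:**
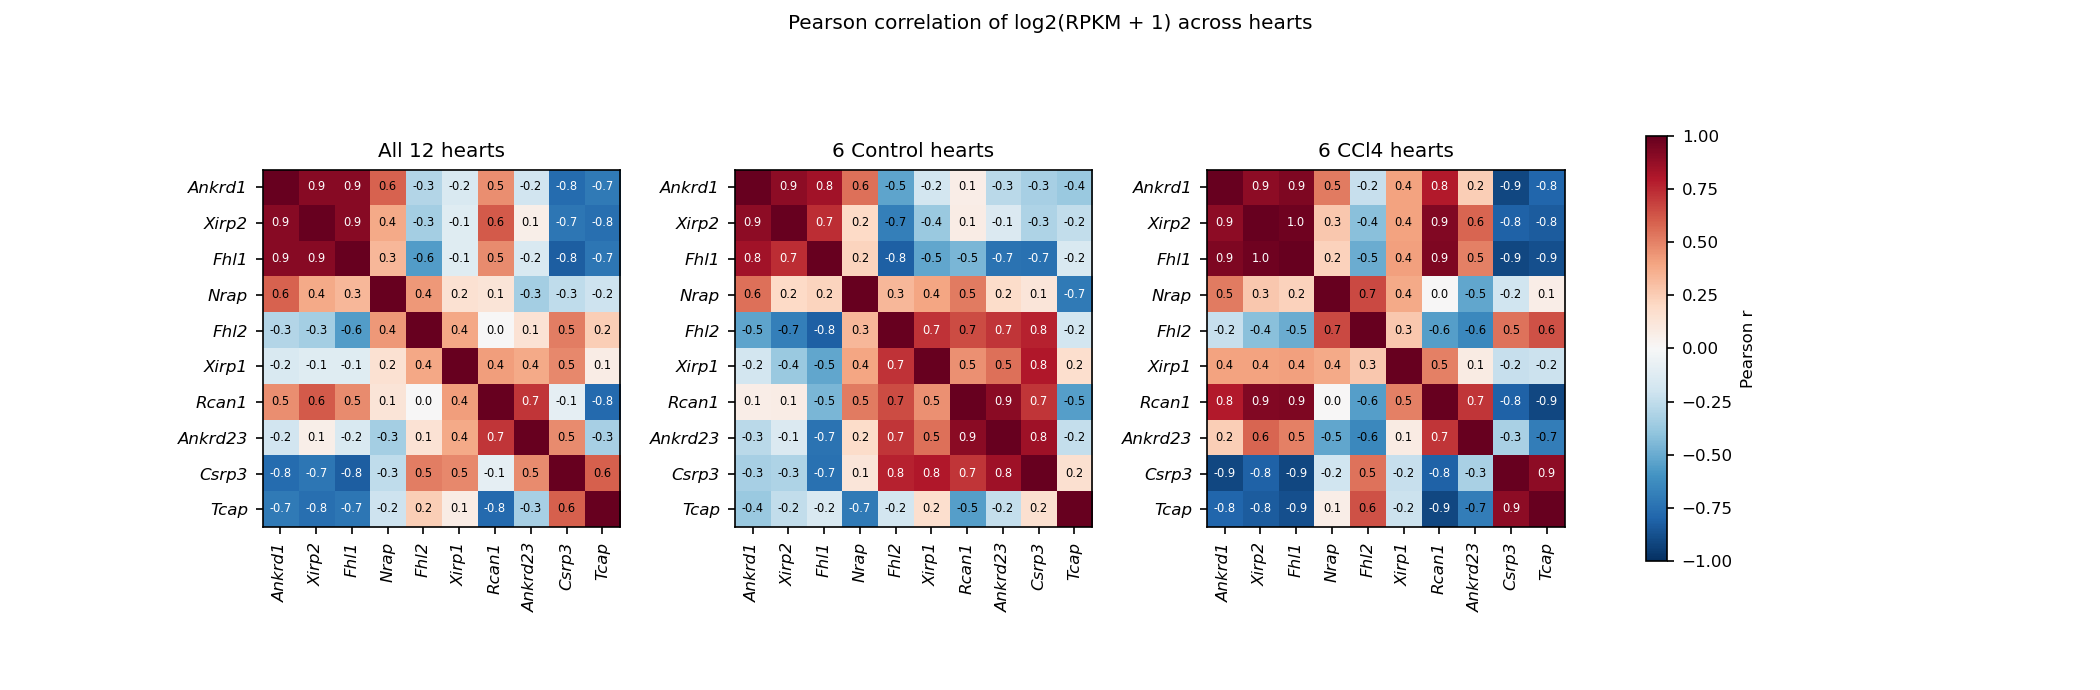
Pearson's r of log2(RPKM + 1) between all pairs of the 10 genes, over 12 hearts (left), 6 Control hearts (middle) and 6 CCl4 hearts (right). Ankrd1, Xirp2 and Fhl1 form a red block in all 3 panels, while the blue block of Tcap with these genes is deep only in the CCl4 and pooled panels, a difference that was not tested.

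Among all genes tested, those whose pattern over the 12 hearts was most like that of a member, by Pearson's r as a description and leaving out gene models named by Gm and a number or by Rik, were as follows. Of those left out, 4931428F04Rik ranked first for Ankrd1 (r = 0.964), and the overlapping Gm42417 (r = 1.0 after rounding), Gm13601 (0.975) and Gm17197 (0.952) ranked within the first 2 for Ankrd23, Xirp2 and Nrap. For Xirp2 they were Cilp, a matrix protein of cartilage and fibrotic tissue (r = 0.976; 4.21 and 36.0 RPKM in Control and CCl4 hearts), and the clock-related repressor Bhlhe41 (r = 0.973). Fhl1 was most like the galectin Lgals3 (r = 0.990; 1.86 and 4.41 RPKM) and the protease cathepsin K, Ctsk (r = 0.981). The nearest genes to Ankrd1 were Ube2e2 (r = 0.949) and the autophagy receptor Sqstm1 (r = 0.946; 37.7 and 48.9 RPKM). Csrp3 was nearest to Mlycd, the enzyme that breaks down malonyl-CoA (r = 0.969; 6.56 and 4.53 RPKM), and to Agpat3 (r = 0.966). Xirp1 was nearest to Dnajc11 and Kpna1 (r = 0.964 and 0.963), Ankrd23 to Magoh and Myadm (0.924 and 0.920), and Fhl2 to Fkbp3 and Cyfip2 (0.944 and 0.933). Nrap was nearest to Epm2a and Mov10l1 (0.953 and 0.944), and Rcan1 to Arpc2 and Eri1 (0.963 and 0.953). For Tcap it was Ldhd (0.943), ahead of a gene model known by a clone name (0.940).

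Relatives and partners of these proteins were read from 6 further lists, and in each list 0 genes passed the limma test. For comparison, 34.3% of all genes tested had a positive log2 fold change, and their median was -0.0483. Of 21 tested LIM domain relatives 4 had a positive and 17 a negative log2 fold change (median -0.125). The smallest p belonged to Pdlim4 (1.71 ± 0.386 and 1.15 ± 0.317 RPKM, adjusted p = 0.348), the actin-binding Ablim1 (11.0 ± 0.996 and 9.25 ± 0.528 RPKM) and the focal adhesion adaptor Lims2 (17.2 ± 3.49 and 13.0 ± 1.86 RPKM), and in all 3 genes no CCl4 heart lay above the Control median. Of 16 tested titin and Z-disc partners 3 were positive and 13 negative (median -0.0900). Hspb7, a small heat shock protein of the sarcomere, was at 530 ± 49.7 and 642 ± 88.3 RPKM (log2 fold change 0.27, adjusted p = 0.402), while Myot (-0.37) and the calcineurin-binding Myoz2 (-0.33) were on the negative side. The third muscle ankyrin gene, Ankrd2, did not meet the expression filter.

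Among 16 partners at costameres and intercalated discs 3 were positive and 13 negative (median -0.148). Jup, the plakoglobin of the desmosome, was at 5.16 ± 0.456 and 4.19 ± 0.448 RPKM (-0.25, limma adjusted p = 0.319), the integrin-binding melusin Itgb1bp2 at 144 ± 21.4 and 115 ± 18.1 RPKM, and N-cadherin, Cdh2, at 10.7 ± 1.64 and 12.6 ± 1.78 RPKM. The calcineurin and NFAT list, to which Rcan1 is tied, had 8 positive and 9 negative genes of 17 (median -0.007). Its smallest p belonged to the anchoring protein Akap5 (4.04 ± 1.31 and 2.55 ± 0.538 RPKM, adjusted p = 0.402) and to the factors Mef2d (-0.21) and Mef2a (-0.18). In the YAP and TEAD list 2 of 14 were positive and 12 negative (median -0.113), with Tead4 (-0.19), the kinase Lats2 (-0.28) and Amotl1 (-0.22) first by p. This list mixes genes of different roles, so the counts give no direction of the pathway. Its summed level ran from 66.0 to 105 RPKM in Control and from 46.3 to 173 RPKM in CCl4 hearts. Of 7 tested markers of haemodynamic load 5 were positive and 2 negative (median 0.059), with skeletal actin Acta1 at 42.7 ± 11.0 and 32.8 ± 12.4 RPKM (adjusted p = 0.56), Uck2 at 0.16 and the atrium-rich Mybphl at -1.30 on the log2 scale. Nppa was at 4251 ± 5098 and 5356 ± 4383 RPKM, with a log2 difference of 0.58 (unadjusted exact permutation p = 0.539). Nppb (169 ± 45.6 and 203 ± 137 RPKM) and Myh7 (283 ± 25.9 and 303 ± 84.6 RPKM) had differences of 0.07 and 0.06.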

How the data were processed

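Messenger RNA of 12 mouse hearts, 6 Control and 6 CCl4, had been sequenced from stranded libraries, per the labels' protocols. The deposited values are RPKM, which the authors made with Trimmomatic 0.36 and featureCounts of Subread 1.5.1 on GRCm38, per the submitters' processing notes; no aligner, annotation release or strand setting is named there. Groups and replicate numbers came from sample titles.

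The filter kept 14087 genes that reached an RPKM of 0.5 in 6 or more libraries, and these were tested with limma 3.58.1 in R 4.3.3 (lmFit and eBayes with trend on log2(RPKM + 1), all 12 libraries, no covariate, two-sided, Benjamini-Hochberg over all genes tested, threshold 0.05). The steps were tested on simulated data. Ratios were compared with exact permutation over 924 splits (smallest p 0.00216), and pairs of genes with 100000 permutations (720 within a group). Depth came from RPKM multiplied by exon length in GENCODE M21, which matched 30270 symbols (95.4%); of values no larger than 30 steps, 93.7% to 95.2% differed by less than 0.05 from a whole step. Some steps may be less than a fragment, so depths are relative. Coordinates are GRCm38, 1-based. The text names the 10 members, the 3 genes of smallest p per list, the 2 genes most alike to each member (gene models named Gm or Rik left out), and cell type markers or overlapping genes that stand beside a result. It also names the load markers Nppa, Nppb and Myh7. The members and lists were chosen with earlier results of these data known. Protein features, although planned, were not analysed here. Alternatives covered pseudocount, filter, scaling, weights, robust fit, replicate block, exact permutation and left-out libraries; voom on recovered steps was added after seeing the data. Python 3.11.15, pandas 2.3.3 and numpy 2.4.6 were used for tables.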

Additional observations from a re-analysis of the deposited data

Results flagged for a closer look

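Each of the 10 genes was checked in each group for a heart far from the other 5, and 2 of 20 such groups held one, where chance flags about 1 in 20 groups. Csrp3 was at 139.6 RPKM in Control replicate 1, the lowest of 6, with the other Control hearts at 178 to 204 RPKM. Xirp1 was at 4.54 RPKM in CCl4 replicate 2, the lowest of 6, with the other CCl4 hearts at 6.38 to 7.75 RPKM.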

How the results depend on the processing

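Ankrd1, Xirp2, Fhl1 and Nrap stayed higher and Ankrd23, Csrp3, Tcap and Xirp1 stayed lower in CCl4 hearts under all 29 alternatives. Fhl2 (-0.01) was on the higher side with median-of-ratios scaling (0.06), quantile normalization (0.08), scaling without mitochondrial-genome genes (0.05), scaling to cardiomyocyte markers (0.16) and without CCl4 replicate 3 and Control replicate 3 (0.14). Rcan1 (0.01) was on the lower side with TPM scaling (-0.06), without Control replicate 1 and CCl4 replicate 4 (-0.05) and without CCl4 replicate 3 and Control replicate 3 (-0.08). With single hearts left out Fhl2 ran from -0.12 to 0.08 and Rcan1 from -0.17 to 0.13, and over all alternatives Fhl2 ran from -0.15 to 0.16.

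No member was called in the other scalings, pseudocounts, filters, the robust fit, the exact permutation test, the replicate block fit or voom on recovered steps. Array weights gave 3 members higher and 1 lower, and 770 and 1479 of all genes. Without Control replicate 1 and CCl4 replicate 1 it was 1 and 1, and 102 and 221 of all genes, and without Control replicate 1 and CCl4 replicate 4 it was 0 and 0, and 1 and 0 of all genes. With a single heart left out 0 members were called in either direction, and 0 to 7 of all genes higher and 0 to 40 lower, most without CCl4 replicate 1 (7 and 40) and Control replicate 1 (6 and 25). The cause was not tested.

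Same-numbered hearts did not deviate together (correlations from -0.474 to 0.232), so the numbers were not taken as pairs. With the replicate block, an exact sign-flip test of the differences, Xirp1 to Xirp2 (-0.80) had an adjusted p of 0.188 and Ankrd1 to Ankrd23 (1.5) one of 0.234. With single hearts left out these differences ran from -0.96 to -0.67 and from 1.31 to 1.86, and that of Fhl1 to Fhl2 from 0.17 to 0.61.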

Other observations

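The order of the most abundant members differed between hearts, a description chosen after the values were seen. Tcap was above Ankrd1 in all 6 Control hearts, and Ankrd1 was above Tcap in 4 of 6 CCl4 hearts (replicates 3, 4, 5 and 6). In CCl4 replicate 3 Ankrd1 was at 2189 and Tcap at 734 RPKM, while in CCl4 replicate 1 Ankrd1 was at 366 and Tcap at 1671 RPKM.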
